A study of Mus musculus with 16 samples.

Results

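Retinoic acid is made from retinol, which the cell takes up through the membrane receptor STRA6 and which dehydrogenases oxidise first to retinal and then, through the retinaldehyde dehydrogenases ALDH1A1, ALDH1A2 and ALDH1A3, to the acid. DHRS3 reduces retinal back to retinol, the binding proteins CRABP1 and CRABP2 carry the acid within the cell, and CYP26 enzymes break it down. The acid acts by binding nuclear receptors, RARB among them, that sit with RXR partners on paired half-sites in DNA, and Rarb, Dhrs3, Stra6, Crabp2 and the Cyp26 genes are themselves textbook targets of the pathway. The epicardium, the mesothelial layer that covers the heart, is known as a source of retinoic acid during heart development.

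The 9 genes described are Stra6, Aldh1a1, Aldh1a2, Aldh1a3, Dhrs3, Crabp1, Crabp2, Rarb and Cyp26b1, picked by symbol from the 46348 genes of the deposited count table. All 9 were found there once, 7 passed the filter on low counts and were tested, and Aldh1a3 and Crabp1 did not pass. The cells were MEC1, an established mouse epicardial line, so poly(A) RNA was read from 1 cell line and not from animals. Each of 8 groups had 2 libraries: both siRNAs (PRMT1 and p53) with TGF-beta and both without; p53 siRNA with TGF-beta and without; PRMT1 siRNA with TGF-beta and without; and control siRNA with TGF-beta and without. PRMT1 is a protein arginine methyltransferase, p53 is the tumour suppressor encoded by Trp53, and TGF-beta is a growth factor that drives epicardial cells from an epithelial to a mesenchymal state. The doses and times of TGF-beta and siRNA were not given in the sources used here. The series' design text calls the libraries of a group biological replicates without saying how they were grown apart, so the p-values measure the spread between these libraries.

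Library totals ran between 19617874 and 30759317 counts. PRMT1 siRNA lowered Prmt1 by 1.20 ± 0.17 with TGF-beta and by 1.06 ± 0.16 without (log2 ± SE, adjusted p = 0.000992 and 0.00256), and p53 siRNA lowered Trp53 by 1.16 ± 0.09 and 1.32 ± 0.09 (adjusted p = 0.000127 and 8.85e-05). Given together, they left Prmt1 at 37.5% of its level in control siRNA with TGF-beta and 46.3% without, close to PRMT1 siRNA alone (43.5% and 48.1%), but left Trp53 at 60.8% and 65.5%, where p53 siRNA alone left 44.9% and 40.2%. Trp53 was thus higher in each library with both siRNAs than in any with p53 siRNA alone, and PRMT1 siRNA with TGF-beta raised Trp53 by 0.36 ± 0.09 (adjusted p = 0.0251). All 8 epicardial and mesothelial markers were detected in every library, at unlike levels. Wt1 lay between 108.0 and 319.0 library-scaled counts (CPM), Upk3b between 21.7 and 696.0 and Gpm6a between 1.64 and 269.0 CPM. Krt19 was lowest, between 0.0715 and 1.59 CPM. Gata6 lay between 27.4 and 198.0, Msln between 21.3 and 152.0, Tbx18 between 15.6 and 27.8 and Tcf21 between 6.49 and 13.0 CPM. Summed over the 8 markers the level was 245.0 to 326.0 CPM with TGF-beta and 1170.0 to 1600.0 CPM without. The markers with high levels set most of this sum, so it does not show that each marker fell. Of the markers of other cells, the 5 endothelial ones summed to 6.81 to 9.29 CPM with TGF-beta and 4.16 to 8.97 CPM without, the 5 haematopoietic ones to 1.75 to 3.0 and 2.81 to 4.11 CPM, with Adgre1 at 0 throughout, and the 5 cardiomyocyte ones to at most 0.197 and 0.22 CPM. In bulk RNA, fewer cells of a type and less RNA per cell cannot be told apart. Replicate 2 of p53 siRNA with TGF-beta stood apart from its partner, with a root mean square log2 difference of 0.805 against 0.341 to 0.426 in the other 7 groups. For comparisons that contain it, the counts of calls are also given without it. All groups share 1 estimate of the spread, so calls and shares over all genes in the other comparisons depend on it too. In most of those comparisons more genes were called without it, and the counts that moved are listed at the end.

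The promoter windows come first, because 1 gene of the set carries the paired element through which the acid is known to act. No window was available for Aldh1a3 and Crabp2. For the other 7 of the 9 genes there were 13 RefSeq windows, of 250 bases before to 50 after each start site (GRCm38.p6). They were searched on both strands for 2 half-sites in the same direction, 5 bases or 2 bases apart, where a half-site was AGGTCA, or with other letters AGTTCA, or also GGGTCA, or finally GGTTCA. Sequence outside the windows was not searched. A repeat spaced by 5 bases stood in the window of Rarb, at 53 to 37 bases before its start site. It stood in no window of the other genes of the set that had one. Over all genes it stands in 32 of 32851 windows (0.097%), or in 0.115% of genes. No window of the set held a repeat spaced by 2 bases, which 0.268% of all windows hold. Single half-sites, present in 43.7% of all windows and for 46.9% of genes, were found for Rarb, Aldh1a1 and Stra6. Among 40 windowed genes of a wider list of retinoid genes, Cyp26a1, which encodes the main enzyme of retinoic acid breakdown, had the same kind of repeat on the opposite strand, 32 to 16 bases before its start site. The 250 bases before the start site are printed below for these 2 genes, and beside them for Aldh1a1 and Dhrs3, which changed with Rarb; half-sites are in capitals. The Rarb window (chr14:16575477-16575726) is on the minus strand and starts the transcript whose interval the count table covers (chr14:16430842-16575472). The windows of Cyp26a1 (chr19:37697558-37697807), Aldh1a1 (chr19:20601718-20601967) and Dhrs3 (chr4:144892577-144892826) are on the plus strand.
Rarb: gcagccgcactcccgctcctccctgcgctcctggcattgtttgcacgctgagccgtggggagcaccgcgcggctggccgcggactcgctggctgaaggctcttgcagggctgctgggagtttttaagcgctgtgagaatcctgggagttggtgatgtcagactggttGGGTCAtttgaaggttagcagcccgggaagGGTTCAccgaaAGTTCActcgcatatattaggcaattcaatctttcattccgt
Cyp26a1: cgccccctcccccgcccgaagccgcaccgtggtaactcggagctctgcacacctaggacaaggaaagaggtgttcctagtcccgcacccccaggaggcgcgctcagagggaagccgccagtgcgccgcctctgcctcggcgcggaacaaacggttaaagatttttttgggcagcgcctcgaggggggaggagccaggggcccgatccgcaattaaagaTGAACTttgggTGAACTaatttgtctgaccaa
Aldh1a1: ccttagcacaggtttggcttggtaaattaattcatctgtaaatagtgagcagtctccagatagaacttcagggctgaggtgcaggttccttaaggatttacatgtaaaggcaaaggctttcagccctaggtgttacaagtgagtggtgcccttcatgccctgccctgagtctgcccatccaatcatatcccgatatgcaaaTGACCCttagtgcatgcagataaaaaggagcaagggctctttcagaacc
Dhrs3: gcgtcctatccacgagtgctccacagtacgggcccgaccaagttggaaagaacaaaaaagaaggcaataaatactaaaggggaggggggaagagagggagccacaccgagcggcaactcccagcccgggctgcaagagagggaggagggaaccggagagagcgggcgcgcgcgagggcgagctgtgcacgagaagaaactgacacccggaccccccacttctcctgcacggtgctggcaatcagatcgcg
A match to these letters describes the window only and is no measure of receptor binding.

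With TGF-beta the genes for retinol uptake (Stra6), retinoic acid synthesis (Aldh1a1), retinal reduction (Dhrs3) and the receptor Rarb fell under all 4 siRNA treatments, while Crabp2, at a level near 1 CPM or below, rose. With control siRNA, 6 of the 7 tested genes passed an adjusted p of 0.05 in edgeR's quasi-likelihood test, 1 higher and 5 lower, where 38.4% of all tested genes were called. The median log2 change of the 7 was -2.26, beside -0.01 over all tested genes. The same count was 5 of 7 with PRMT1 siRNA (1 higher, 4 lower; 32.5% of all genes called), 6 of 7 with p53 siRNA (1 higher, 5 lower; 45.3%, and without the library that stood apart 4 of 7, where Aldh1a2 and Crabp2 were no longer called) and 6 of 7 with both siRNAs (1 higher, 5 lower; 31.3%). The medians of the 7 genes were -1.02, -1.72 and -1.80 in that order, and those of all genes -0.01, 0.02 and -0.02. The genes of the set were chosen with earlier results of these data known, so setting them beside all genes is no test of the set. The calls for Stra6, Aldh1a1, Dhrs3 and Rarb were kept in all 12 other settings tried under each siRNA treatment (8 ways of fitting the counts and 4 fits with 1 library left out; 11 with p53 siRNA, where 1 of the 8 leaves out a library of that comparison and is the same fit as 1 of the 4). The sum of the epicardial markers given above, set mostly by those with high levels, also lay lower in every library with TGF-beta. The part of these markers in the changes was not tested.

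**Figure D1:**
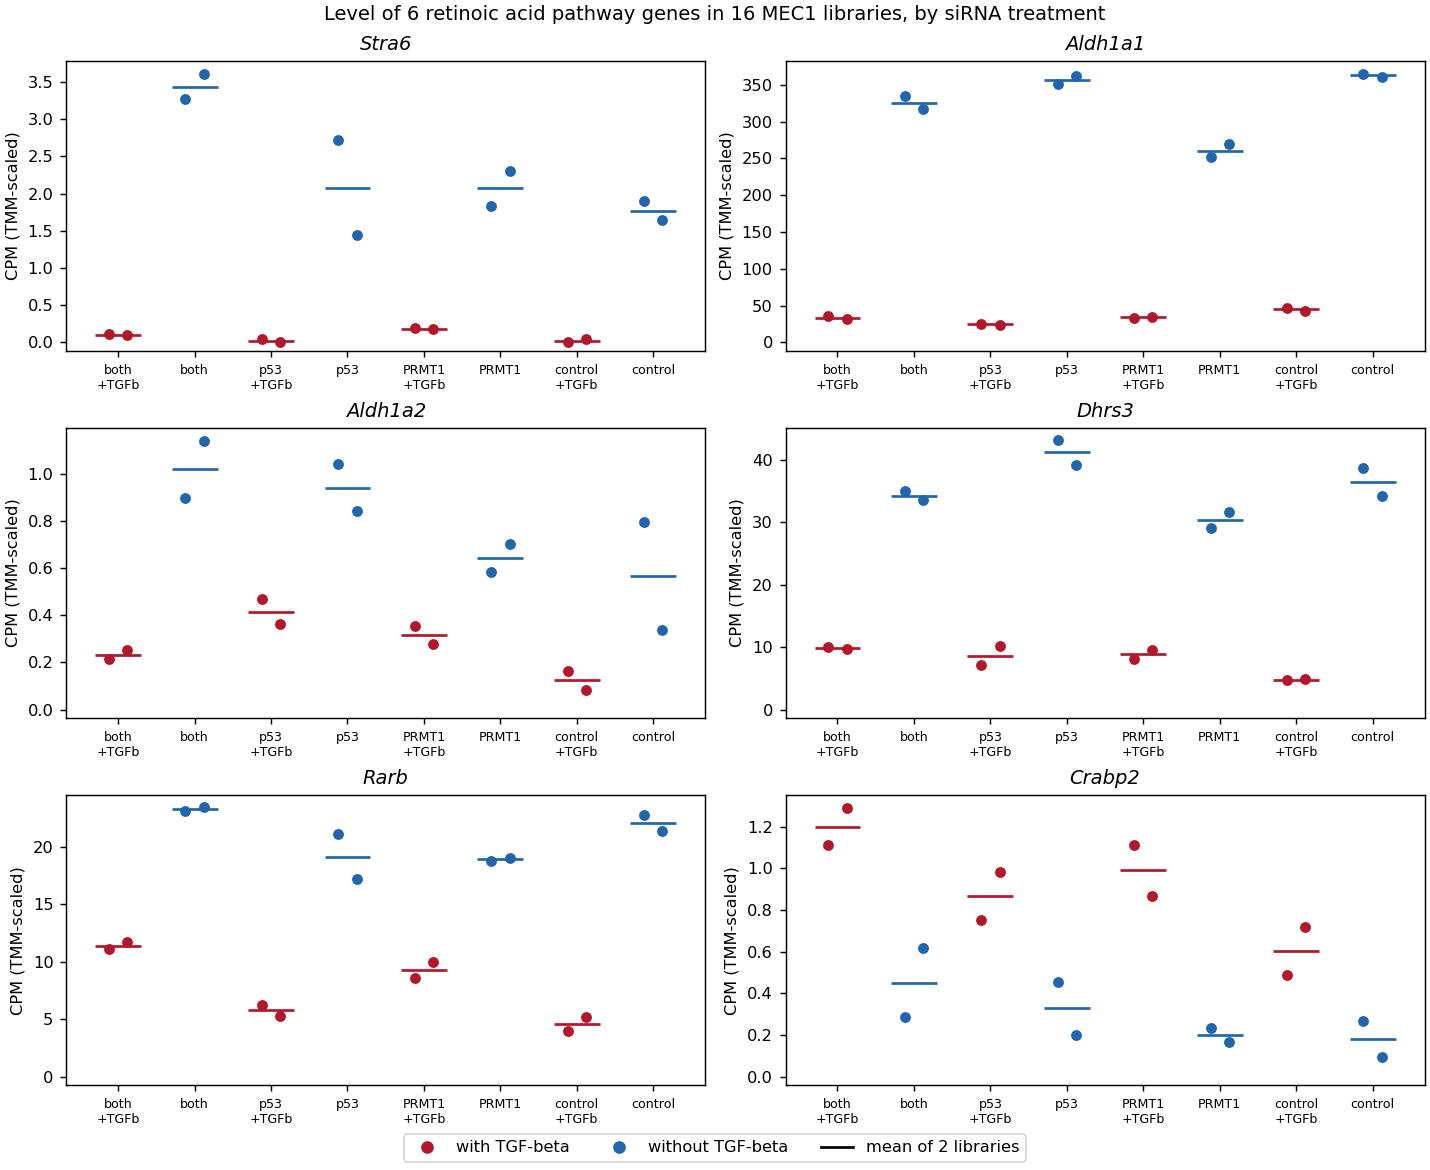
Level of 6 genes in each of the 16 libraries, in TMM-scaled CPM (y axis, linear and starting near 0), by siRNA treatment (x axis). Points are libraries and bars are means of 2; red is with TGF-beta and blue without. For Stra6, Aldh1a1, Dhrs3 and Rarb every red point lies below every blue one, and for Crabp2 within each siRNA treatment every red point lies above the blue ones.

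Stra6 (chr9:58063788-58153996, plus strand) encodes the membrane receptor that imports retinol from its plasma carrier, and it lost nearly all its counts with TGF-beta. Replicates 1 and 2 had 0 and 1 counts in control siRNA with TGF-beta, against 43 and 34 counts in control siRNA without. With PRMT1 siRNA they had 5 and 5 counts with TGF-beta, against 47 and 56 without. With p53 siRNA they had 1 and 0 counts with TGF-beta against 60 and 36 without, and with both siRNAs 3 and 3 against 102 and 82. No library with TGF-beta reached the count of any library without it. The ratio of depth-scaled counts, TGF-beta over none, was 1.34% with control siRNA (exact 95% interval 0.0335% to 7.69%, counting error only) and 1.20% with p53 siRNA (0.0302% to 6.87%), each resting on 1 count. It was 8.96% with PRMT1 siRNA (4.17% to 17.1%) and 2.94% with both siRNAs (1.07% to 6.53%). The log2 change was -3.45 ± 0.43 with PRMT1 siRNA and -5.03 ± 0.45 with both siRNAs (adjusted p = 7.34e-05 and 4.40e-06), and with control siRNA and p53 siRNA the adjusted p was 2.22e-05 and 1.18e-05. Ccdc33, which overlaps Stra6 on the other strand, moved with it: its summed counts were 0 in each of the 4 groups with TGF-beta, against 93.9 with both siRNAs, 37 with p53 siRNA, 55 with PRMT1 siRNA and 24 with control siRNA without TGF-beta. The Stra6 counts of those groups without TGF-beta were 184, 96, 103 and 77. The overlap lies in the first part of the Stra6 interval, up to the table's Ccdc33 stop at 58118824. The RefSeq start sites of Stra6 lie past it, from 58129088 to 58134665. Because the strand setting of the counting was not given in the sources used here, reads of the overlap cannot be told apart, and the part of Ccdc33 in the Stra6 change was not tested.

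Aldh1a1 (chr19:20601961-20643462, plus strand), which encodes the cytosolic retinaldehyde dehydrogenase, had the highest level of the 9 genes. It had 47.0 and 42.6 CPM in control siRNA with TGF-beta, against 365.0 and 360.0 CPM in control siRNA without. With PRMT1 siRNA it had 33.5 and 35.1 CPM with TGF-beta, against 252.0 and 269.0 CPM without. With p53 siRNA it had 24.9 and 24.3 CPM with TGF-beta, against 351.0 and 362.0 CPM without. The level with TGF-beta was lowest under p53 siRNA, where the level without TGF-beta overlapped that of control siRNA. With both siRNAs it had 35.6 and 31.4 CPM with TGF-beta, against 334.0 and 317.0 CPM without. It fell 8.10-fold with control siRNA (log2 change -3.02 ± 0.09, adjusted p = 3.75e-10), and its log2 changes were -3.28 ± 0.09 with both siRNAs, -3.86 ± 0.09 with p53 siRNA and -2.92 ± 0.09 with PRMT1 siRNA (adjusted p = 7.38e-10, 2.26e-10 and 8.05e-10). The TGF-beta libraries thus kept 10.3%, 6.90%, 13.2% and 12.4% of the mean level without TGF-beta under both, p53, PRMT1 and control siRNA. Aldh1a1 shares 7.53% of its 50-base stretches with the transcript of its near copy Aldh1a7 and 0% with those of Aldh1a2 and Aldh1a3. Aldh1a1 had 208.0 to 1010.0 times the CPM of Aldh1a7, and how reads common to both were assigned is not known here.

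Aldh1a2 (chr9:71215789-71296243, plus strand), the retinaldehyde dehydrogenase that makes the embryo's main supply of retinoic acid and a gene known from the epicardium in vivo, was close to the limit of detection in MEC1 cells. It had 0.163 and 0.0847 CPM in control siRNA with TGF-beta, against 0.796 and 0.339 CPM without, a log2 change of -2.21 ± 0.54 (adjusted p = 0.00679) on 5 and 25 summed counts. This call was lost without replicate 1 of control siRNA and without replicate 2 of control siRNA with TGF-beta (adjusted p up to 0.178 with 1 library left out). With both siRNAs it had 0.214 and 0.251 CPM with TGF-beta, against 0.897 and 1.14 CPM without, and the log2 change of -2.09 ± 0.41 (adjusted p = 0.00224) was kept in all 12 other settings. With p53 siRNA the summed counts were 17 with TGF-beta and 44 without, a log2 change of -1.16 ± 0.41 (adjusted p = 0.0371) that 8 of 11 other settings did not call, leaving out the library that stood apart among them. With PRMT1 siRNA they were 17 and 32, and the log2 change of -1.01 ± 0.42 did not pass (adjusted p = 0.0893).

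Aldh1a3 (chr7:66390892-66427517, minus strand), the remaining retinaldehyde dehydrogenase, had 3.06 to 12.4 expected counts per library and 117.3 in all, too few for the filter. Per kilobase of transcript, Aldh1a1 made up 97.22% to 99.88% of the summed level of the 3 genes in every library. That summed level was 21.9 CPM per kb in control siRNA with TGF-beta and 177.0 CPM per kb without, 17.0 and 127.0 with PRMT1 siRNA, 12.3 and 174.0 with p53 siRNA, and 16.5 and 159.0 with both siRNAs. The retinaldehyde dehydrogenase transcripts of these cells were thus nearly all Aldh1a1 in each group, with and without TGF-beta.

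Dhrs3 (chr4:144892827-144928209, plus strand) encodes the enzyme that turns retinal back into retinol. It had 4.74 and 4.83 CPM in control siRNA with TGF-beta, against 38.6 and 34.2 CPM without. With PRMT1 siRNA it had 8.09 and 9.60 CPM with TGF-beta, against 29.1 and 31.6 CPM without. With p53 siRNA it had 7.08 and 10.2 CPM with TGF-beta, against 43.1 and 39.2 CPM without. All 6 libraries with TGF-beta and a PRMT1, p53 or double siRNA lay above the 2 with TGF-beta and control siRNA. With both siRNAs it had 9.97 and 9.64 CPM with TGF-beta, against 34.9 and 33.5 CPM without. Its log2 change with TGF-beta was -2.93 ± 0.16 with control siRNA (7.60-fold lower, adjusted p = 4.08e-08), -1.80 ± 0.14 with both siRNAs, -2.25 ± 0.15 with p53 siRNA and -1.78 ± 0.14 with PRMT1 siRNA (adjusted p = 1.38e-06, 1.84e-07 and 1.74e-06). The share of the untreated level kept was 28.7% with both siRNAs, 21.0% with p53 siRNA, 29.2% with PRMT1 siRNA and 13.1% with control siRNA.

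Crabp2 (chr3:87948666-87953376, plus strand), which encodes the carrier that hands retinoic acid to its nuclear receptors, went the other way. It had 0.490 and 0.720 CPM in control siRNA with TGF-beta, against 0.265 and 0.0967 CPM without, a log2 change of 1.71 ± 0.58 (adjusted p = 0.0351). With PRMT1 siRNA it had 1.11 and 0.869 CPM against 0.234 and 0.165 CPM (log2 change 2.27 ± 0.51, adjusted p = 0.00531). In each siRNA treatment both libraries with TGF-beta lay above both without it. The log2 change was 1.41 ± 0.50 with p53 siRNA and 1.45 ± 0.44 with both siRNAs (adjusted p = 0.0373 and 0.0258). These rest on few reads: 26 summed counts with TGF-beta against 8 without under control siRNA, 53 against 10 under PRMT1 siRNA, 35 against 15 under p53 siRNA and 72 against 23 under both. The call was lost in 4 of 11 other settings with control siRNA, DESeq2 (R package) among them, in 1 of 12 with PRMT1 siRNA, in 7 of 11 with p53 siRNA, leaving out the library that stood apart among them, and in 3 of 12 with both. Its relative Crabp1 (chr9:54764748-54773110, plus strand) had 5 counts in all, 4 of them with PRMT1 siRNA and TGF-beta, and stood at 0 in 13 libraries, so no fold is given.

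Rarb (chr14:16430842-16575472, minus strand) encodes retinoic acid receptor beta, and its start site lies downstream of the paired element printed above. It had 3.98 and 5.21 CPM in control siRNA with TGF-beta, against 22.8 and 21.4 CPM without. With PRMT1 siRNA it had 8.61 and 10 CPM with TGF-beta, against 18.8 and 19 CPM without. With p53 siRNA it had 6.24 and 5.31 CPM with TGF-beta, against 21.1 and 17.2 CPM without. The level with TGF-beta and PRMT1 siRNA was above every library with TGF-beta and control or p53 siRNA. With both siRNAs it had 11.1 and 11.7 CPM with TGF-beta, against 23.1 and 23.5 CPM without. The log2 change with TGF-beta was -2.26 ± 0.14 with control siRNA (4.78-fold lower, adjusted p = 2.00e-07), -1.03 ± 0.13 with both siRNAs, -1.72 ± 0.14 with p53 siRNA and -1.02 ± 0.13 with PRMT1 siRNA (adjusted p = 7.34e-05, 1.34e-06 and 0.000103). The share of the untreated level kept was 48.9% with both siRNAs, 30.2% with p53 siRNA, 49.2% with PRMT1 siRNA and 20.8% with control siRNA.

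Per kilobase of transcript, Rarb fell within a receptor family whose other members were not called in the TGF-beta response with control siRNA. Rarb made up 6.25% ± 1.24 (SD, n = 2) of the summed level of Rara, Rarb and Rarg in control siRNA with TGF-beta, and 25.4% ± 0.141 without. The share was 10.3% with TGF-beta and 21.4% without under PRMT1 siRNA, 6.80% and 22.4% under p53 siRNA, and 12.5% and 24.5% under both siRNAs. Rarg had the highest level of the 3 in every group, between 23.4 and 31.5 CPM per kb over all libraries, and Rara lay between 10.3 and 16.8 CPM per kb. With control siRNA the log2 changes of Rara and Rarg with TGF-beta were 0.18 ± 0.13 and 0.05 ± 0.09 (adjusted p = 0.32 and 0.716).

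**Figure D2:**
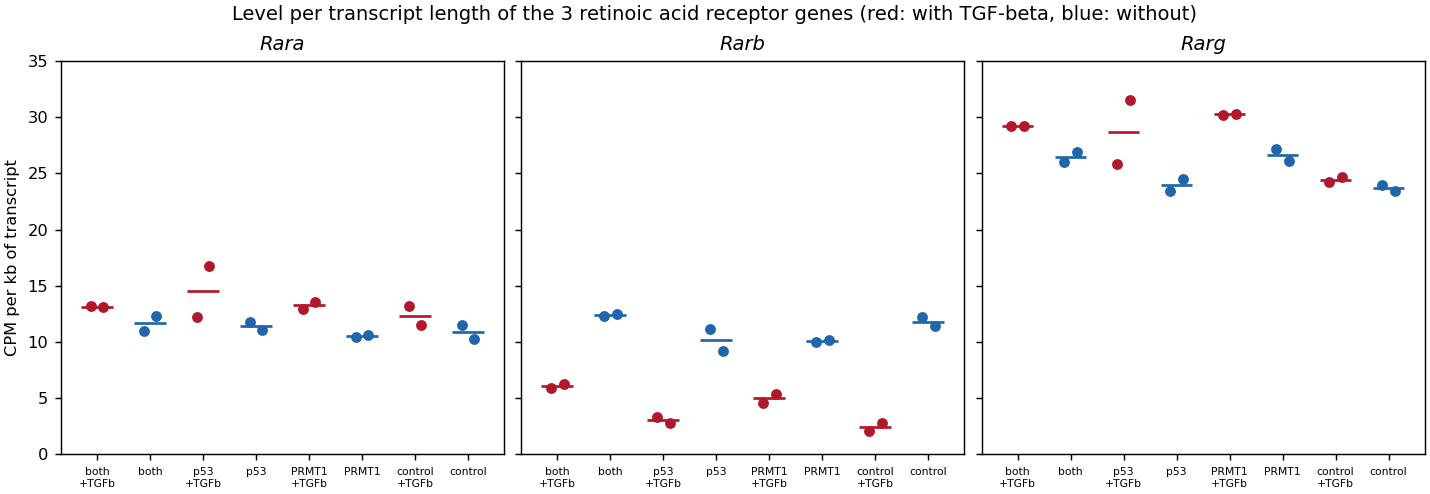
Level of Rara, Rarb and Rarg per kilobase of transcript (y axis, CPM per kb, from 0) in each library, by siRNA treatment (x axis), red with TGF-beta and blue without; bars are means of 2 libraries. Rarb lies between 2.12 and 12.5 and is lower in every red library, while Rarg lies between 23.4 and 31.5.

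Cyp26b1 (chr6:84571414-84593908, minus strand), which encodes a retinoic acid hydroxylase, had 2 to 13 counts per library and was called in none of the 4 TGF-beta responses. It had 0.272 and 0.127 CPM in control siRNA with TGF-beta, against 0.310 and 0.435 CPM without, a log2 change of -0.93 ± 0.74 (adjusted p = 0.361). The other 3 responses had the opposite sign, with log2 changes of 0.23 ± 0.75 with both siRNAs, 0.71 ± 0.81 with p53 siRNA and 0.31 ± 0.64 with PRMT1 siRNA (adjusted p = 0.852, 0.502 and 0.740).

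**Figure D3:**
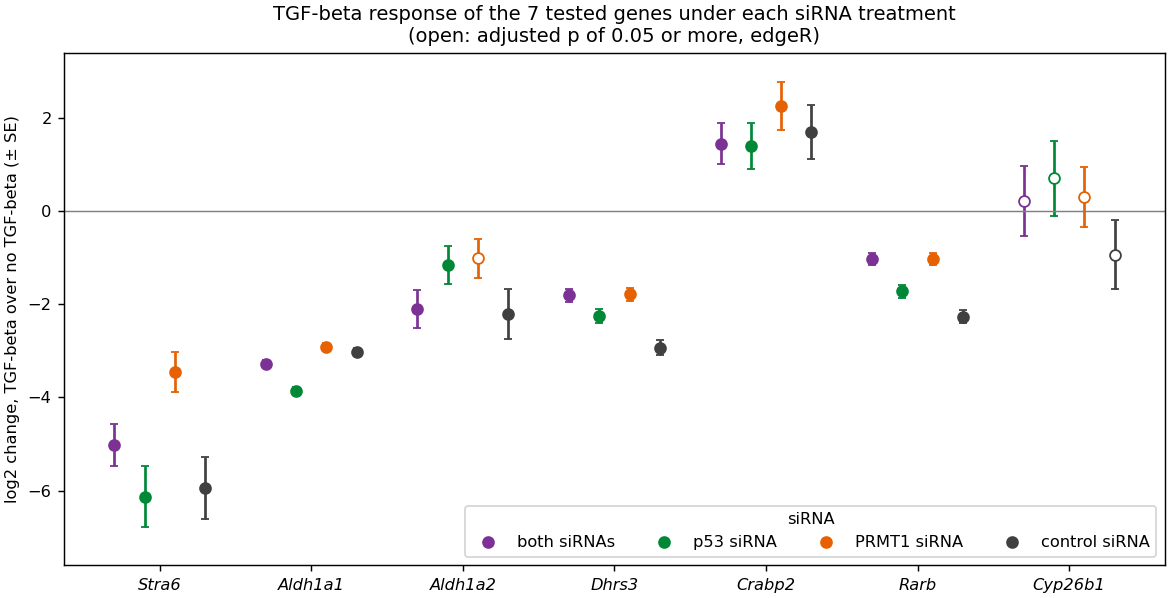
Log2 change with TGF-beta over no TGF-beta (y axis, ± SE) of the 7 tested genes (x axis), with both siRNAs, p53 siRNA, PRMT1 siRNA and control siRNA from left to right within each gene. Filled points passed an adjusted p of 0.05. Stra6, Aldh1a1, Dhrs3 and Rarb lie below 0 in all 4, Crabp2 above 0 in all 4, and the Stra6 points for control siRNA and p53 siRNA each rest on 1 count with TGF-beta.

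Without TGF-beta, the siRNAs changed few of these genes. PRMT1 siRNA lowered Aldh1a1, to 252.0 and 269.0 CPM against 365.0 and 360.0 CPM in control siRNA (log2 change -0.48 ± 0.08, adjusted p = 0.00352), and this was the 1 call among the 7 genes, where 10.3% of all genes were called. The call was lost without replicate 1 of PRMT1 siRNA (adjusted p = 0.0583). Dhrs3 and Rarb had log2 changes of -0.26 ± 0.13 and -0.22 ± 0.13 with PRMT1 siRNA (adjusted p = 0.262 and 0.323). With p53 siRNA edgeR called 0 of the 7 genes, against 2.47% of all genes, and 0 had an unadjusted p under 0.05; Dhrs3 and Rarb had log2 changes of 0.18 ± 0.13 and -0.21 ± 0.13 (adjusted p = 0.651 and 0.539). With both siRNAs it also called 0, against 4.45% of all genes, with 1 gene at an unadjusted p under 0.05, Stra6, at 3.27 and 3.60 CPM against 1.90 and 1.64 CPM in control siRNA (log2 change 0.95 ± 0.31, adjusted p = 0.119). DESeq2 likewise called 0 of the 7 genes in both comparisons. Aldh1a1 had 334.0 and 317.0 CPM with both siRNAs, between the levels with PRMT1 siRNA and control siRNA, a log2 change of -0.16 ± 0.08 against control (adjusted p = 0.320).

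With TGF-beta, each siRNA treatment gave lower Aldh1a1 and higher Dhrs3 than control siRNA, and the 2 treatments that target PRMT1 gave higher Rarb. With PRMT1 siRNA 3 of 7 genes were called (15.7% of all genes), with p53 siRNA 2 of 7 (5.21%; 1 of 7 without the library that stood apart) and with both 3 of 7 (13.1%). The shares over all genes with PRMT1 siRNA and with both depend on the library that stood apart too, through the shared spread. They were much higher without it, as listed at the end, so no excess among the 7 genes is read from them. Aldh1a1 changed by -0.42 ± 0.08 with both siRNAs, -0.86 ± 0.08 with p53 siRNA and -0.38 ± 0.08 with PRMT1 siRNA (log2 ± SE, adjusted p = 0.00690, 0.000306 and 0.0107). Under TGF-beta no library of the 3 treatments reached the lower control value of 42.6 CPM. Dhrs3 changed by 1.03 ± 0.16, 0.85 ± 0.16 and 0.89 ± 0.16 under the same treatments (adjusted p = 0.00170, 0.0148 and 0.00477), so its level was 2.05, 1.80 and 1.85 times that of control siRNA. Rarb changed by 1.01 ± 0.15 with PRMT1 siRNA and 1.30 ± 0.15 with both (adjusted p = 0.00132 and 0.00021), to 2.02 and 2.46 times the control level, while its log2 change of 0.32 ± 0.16 with p53 siRNA did not pass (adjusted p = 0.193). The Rarb calls and that of Dhrs3 with both siRNAs were kept in all 12 other settings. Dhrs3 with p53 siRNA lost its call in 4 of 11 settings, which include leaving out replicate 2 of p53 siRNA with TGF-beta (log2 change 0.56, adjusted p = 0.0747) and either control library with TGF-beta. Dhrs3 with PRMT1 siRNA lost it without replicate 2 of PRMT1 siRNA with TGF-beta (adjusted p = 0.0523). The Aldh1a1 call with PRMT1 siRNA was lost without replicate 1 of control siRNA with TGF-beta or either library of PRMT1 siRNA with TGF-beta (adjusted p up to 0.105). The Aldh1a1 call with both siRNAs was lost without replicate 1 of control siRNA with TGF-beta or replicate 2 of both siRNAs with TGF-beta (up to 0.104). With p53 siRNA it was lost when only the groups of the contrast were fitted (0.694), where 0 genes of the table were called. Stra6 had 10 summed counts with PRMT1 siRNA and 6 with both, against 1 with control siRNA, ratios of 7.76 (exact 95% interval 1.10 to 337.0) and 4.21 (0.511 to 194.0), and neither was called. Aldh1a2 and Crabp2 had log2 changes of 1.36 ± 0.58 and 0.68 ± 0.44 with PRMT1 siRNA (adjusted p = 0.130 and 0.298), Aldh1a2 of 1.75 ± 0.57 with p53 siRNA (0.0928) and Crabp2 of 0.96 ± 0.43 with both (0.176).

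**Figure D4:**
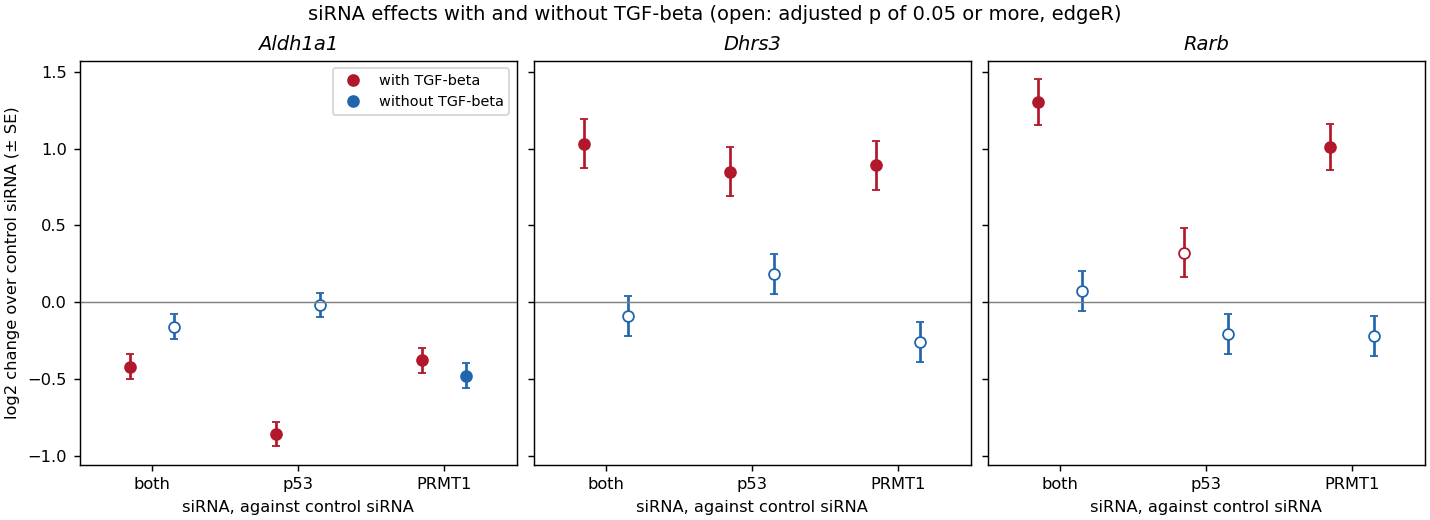
Log2 change over control siRNA (y axis, ± SE) of Aldh1a1, Dhrs3 and Rarb for both siRNAs, p53 siRNA and PRMT1 siRNA (x axis), red with TGF-beta and blue without; filled points passed an adjusted p of 0.05. With TGF-beta Dhrs3 lies between 0.85 and 1.03 and Aldh1a1 between -0.86 and -0.38, and without TGF-beta the 1 filled point is Aldh1a1 with PRMT1 siRNA at -0.48.

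Whether the TGF-beta response itself differed between siRNA treatments was tested as an interaction, the TGF-beta response with the siRNA minus that with control siRNA. With PRMT1 siRNA 2 of 7 genes were called, against 2.08% of all genes: Dhrs3 (1.15 ± 0.21, adjusted p = 0.0187) and Rarb (1.24 ± 0.19, adjusted p = 0.00938), both with a smaller fall. With both siRNAs the same 2 were called, against 1.26% of all genes, Dhrs3 by 1.12 ± 0.21 and Rarb by 1.22 ± 0.19 (adjusted p = 0.0266 and 0.0102). These 2 interactions share the control libraries. All groups share 1 estimate of the spread, so the library that stood apart enters both shares over all genes. Both shares were much higher without it, most of all with PRMT1 siRNA, as listed at the end. They are thus no fixed rate to set the 7 genes against, and no excess among the 7 is read from them. With p53 siRNA 1 of 7 was called, against 1.02% of all genes: Aldh1a1, by -0.84 ± 0.12 (adjusted p = 0.00794), a larger fall, and the count was also 1 without the library that stood apart. The p53 interactions of Dhrs3 and Rarb were 0.67 ± 0.21 and 0.53 ± 0.20 (adjusted p = 0.167 and 0.224), and the Aldh1a1 interactions with PRMT1 siRNA and with both were 0.09 ± 0.11 and -0.26 ± 0.11 (0.622 and 0.472). The Stra6 interaction with PRMT1 siRNA did not pass (adjusted p = 0.203) and rests on the 1 count of control siRNA with TGF-beta. Leaving out 1 library at a time, the Aldh1a1 call with p53 siRNA was kept in all 8 fits (adjusted p up to 0.0488), but it was lost when only the 4 groups of the contrast were fitted (adjusted p = 0.231). The Rarb calls were kept in 4 of 8 such fits with PRMT1 siRNA and in 5 of 8 with both siRNAs (adjusted p up to 0.0654 and 0.0610). Those of Dhrs3 were kept in 1 of 8 and in 0 of 8. Over all other settings run, its interaction lay between 1.0 and 1.27 with PRMT1 siRNA and between 1.04 and 1.23 with both siRNAs.

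Adding p53 siRNA to PRMT1 siRNA left Trp53 at 90.0 CPM against 190.0 CPM with PRMT1 siRNA alone with TGF-beta (47.5%), and at 89.4 against 142.0 CPM without (63.1%), so the p53 transcript was lowered in part. At that knockdown edgeR called 0 of the 7 genes either with TGF-beta (0.452% of all genes called) or without (0.865%). DESeq2 called 0 with TGF-beta and 1 without. At an unadjusted p under 0.05 there were 0 with TGF-beta and 3 without. Aldh1a1 had 334.0 and 317.0 CPM with both siRNAs against 252.0 and 269.0 CPM with PRMT1 siRNA alone, a log2 change of 0.32 ± 0.08 (adjusted p = 0.0877) that 4 of 12 other settings called, DESeq2 among them. Stra6 and Rarb had log2 changes of 0.73 ± 0.30 and 0.30 ± 0.13 (adjusted p = 0.285 and 0.292). With TGF-beta, Rarb had 11.1 and 11.7 CPM with both siRNAs against 8.61 and 10 CPM with PRMT1 siRNA alone, and Dhrs3 had 9.97 and 9.64 CPM against 8.09 and 9.60 CPM. Their log2 changes were 0.29 ± 0.13 and 0.15 ± 0.15 (adjusted p = 0.485 and 0.706).

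The wider retinoid list held 58 further genes, of which 57 were in the table and 35 were tested. With control siRNA 6 of the 35 rose and 7 fell with TGF-beta, which is 37.1% beside 38.4% of all genes, and their median log2 change was -0.05 beside -0.01. The wider list thus changed about as often as genes in general. Among 10 enzymes that oxidise retinol or reduce retinal, 3 fell and 0 rose. Dhrs9, a retinol dehydrogenase, had 3.87 and 3.94 CPM in control siRNA with TGF-beta, against 24.4 and 28.7 CPM without (log2 change -2.76 ± 0.18, adjusted p = 2.60e-07). Rdh14 and Akr1b10 changed by -1.08 ± 0.12 and -0.67 ± 0.12. Of 4 tested genes of retinol transport and storage edgeR called 0, with 1 at an unadjusted p under 0.05. The degradation enzyme gene Cyp26a1, whose window is printed above, had 2.45 and 2.33 CPM with TGF-beta against 1.15 and 1.11 CPM without (log2 change 1.07 ± 0.22, adjusted p = 0.00238), opposite in direction to Rarb. Fabp5, a carrier that hands retinoic acid to another nuclear receptor, rose by 0.79 ± 0.21. Of the RXR partners, Rxra fell by 0.80 ± 0.09, and among cofactors Nrip1, a corepressor gene, rose by 0.72 ± 0.19. Of 8 tested genes known to respond to retinoic acid 2 rose and 3 fell: Tgm2, the transglutaminase gene, had 54.1 and 67.0 CPM with TGF-beta against 450.0 and 455.0 CPM without (-2.90 ± 0.12, adjusted p = 6.96e-09), Meis2 and Meis1 changed by -0.90 ± 0.08 and -0.46 ± 0.09, and Bhlhe40 and Hoxb5 by 1.58 ± 0.06 and 0.57 ± 0.11. Of these 13 calls 11 were kept in every setting; Fabp5 was not called without replicate 2 of control siRNA or replicate 1 of control siRNA with TGF-beta, and Nrip1 not without replicate 1 of control siRNA or replicate 2 of control siRNA with TGF-beta. Meis1 was the fifth of its group by p and is named to complete the count. Of 31 genes of the genome with a repeat spaced by 5 bases, 7 were tested, Rarb and Cyp26a1 among them. With control siRNA 1 of the 7 rose and 4 fell (median log2 change -0.61), beside 38.4% of all genes called. With PRMT1 siRNA 1 rose and 3 fell (32.5% of all genes), with p53 siRNA 1 and 4 (45.3%) and with both siRNAs 0 and 2 (31.3%). Rarb and Cyp26a1 are on lists chosen with earlier results of these data known, so setting the 7 beside all genes is no test. The part of the repeat in these changes was not tested.

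**Figure D5:**
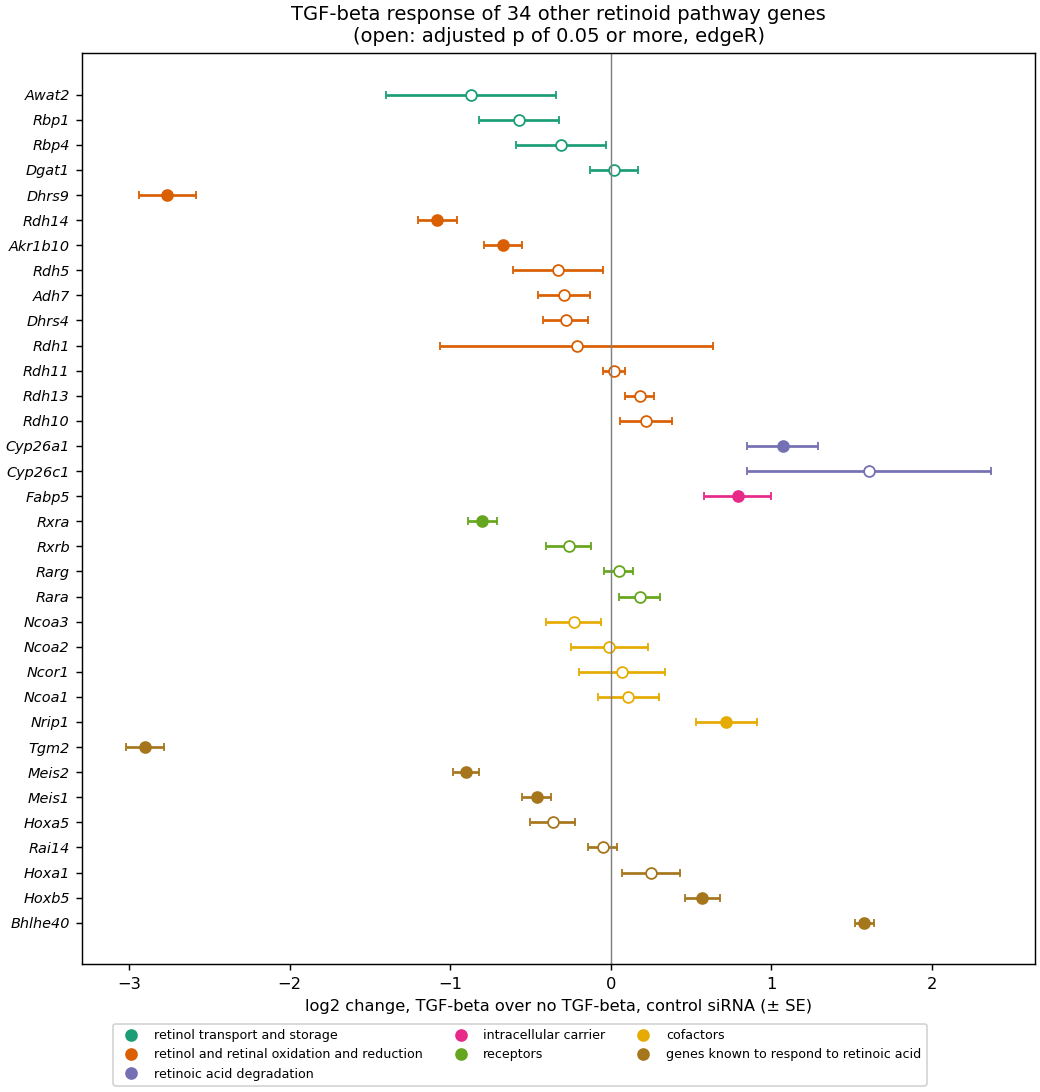
Log2 change with TGF-beta over no TGF-beta under control siRNA (x axis, ± SE) of 34 of the 35 other retinoid genes (y axis), coloured by role; filled points passed an adjusted p of 0.05. Dhrs9 at -2.76 and Tgm2 at -2.90 lie farthest below 0, and 12 of the 34 points are filled.

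In the other TGF-beta responses, 11 of the 35 were called with PRMT1 siRNA (4 higher, 7 lower), 14 with p53 siRNA (7 and 7) and 11 with both (3 and 8), which is 31.4%, 40.0% and 31.4%, beside 32.5%, 45.3% and 31.3% of all genes. Without the library that stood apart the p53 count was 15 (6 and 9), 12 of them the same genes; Dgat1, of triglyceride synthesis, and Rarg were no longer called. Dhrs9 changed by -2.70 ± 0.18, -3.55 ± 0.19 and -2.49 ± 0.17, and Tgm2 by -2.48 ± 0.12, -2.82 ± 0.12 and -2.44 ± 0.12. Bhlhe40 changed by 1.45 ± 0.06, 1.03 ± 0.06 and 1.23 ± 0.06, and its p53 interaction of -0.55 ± 0.08 (adjusted p = 0.0124) was the 1 interaction called among the 35 genes; 7 of 15 other settings did not call it, and without the library that stood apart Meis1 was called as well. The siRNA effects without TGF-beta numbered 3 of 35 in each case (8.57%), beside shares over all genes of 4.45% for the double treatment, 2.47% for p53 siRNA and 10.3% for PRMT1 siRNA. Rbp4, which encodes the plasma carrier of retinol, stood out among them by size. It had 6.86 and 7.42 CPM with PRMT1 siRNA and 9.39 and 9.36 CPM with both, against 2.43 and 1.40 CPM with control siRNA (log2 change 1.88 ± 0.24 and 2.28 ± 0.24, adjusted p = 0.000696 and 0.000721). With TGF-beta it had 5.92 and 5.56 CPM with PRMT1 siRNA and 5.86 and 6.50 CPM with both, against 1.80 and 1.36 CPM with control siRNA (1.88 ± 0.25 and 1.98 ± 0.25, adjusted p = 0.000768 and 0.00043). These 4 calls were kept in all 12 other settings each, and Rbp4 was not called with p53 siRNA alone. With TGF-beta, 8 of 35 were called with PRMT1 siRNA (7 higher, 1 lower), 5 with p53 siRNA (4 and 1) and 9 with both (5 and 4), which is 22.9%, 14.3% and 25.7%, beside 15.7%, 5.21% and 13.1% of all genes. Without the library that stood apart the p53 count was 4, with Dhrs4, a retinal reductase gene, no longer called. The other shares over all genes for the siRNA effects, with TGF-beta and without, were higher when that library was left out, as listed at the end. They are thus no fixed rate to set the 35 genes against. Tgm2 changed by 0.50 ± 0.11 without TGF-beta and 0.58 ± 0.12 with it under p53 siRNA (adjusted p = 0.0451 and 0.018), and by -0.70 ± 0.11 under PRMT1 siRNA without TGF-beta (0.0033). Leaving out any 1 library ended the p53 call without TGF-beta, and leaving out replicate 1 of PRMT1 siRNA ended the PRMT1 call (0.0541). The p53 call with TGF-beta was lost without replicate 1 of control siRNA with TGF-beta (adjusted p = 0.169) and when only the groups of the contrast were fitted (0.694).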

How the data were processed

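Poly(A) RNA of MEC1 cells was sequenced in 16 libraries, 8 groups of 2, which were assigned from the sample titles. The deposited values are expected counts for each gene, unscaled for depth or length; the submitters' processing notes name TopHat2, Partek and mm10, while versions, annotation, strand and counting options were not given in the sources used here. A tolerance of 0.01 took in 60.0% of nonzero values as whole numbers, and all were rounded before tests were run. How reads shared by near copies were divided is not known here, so near copies can trade reads.

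Of 46348 genes, 29120 had a count and 15494 passed filterByExpr. The 8 group means were fitted jointly in edgeR 4.0.16 (R 4.3.3) over the 16 libraries, after TMM scaling, and compared by quasi-likelihood F test. Adjusted p-values are Benjamini-Hochberg over all genes tested, come from edgeR where no other tool is given, and call a gene under 0.05; the SE is the log2 change over the square root of F. The common biological coefficient of variation was 0.114, and 0.0604 with the outlying library (p53 siRNA with TGF-beta, replicate 2) left out. CPM are rounded-count CPM after TMM scaling. CPM per kb use the longest GENCODE vM21 transcript within the table's gene interval. Printed gene ends are 1 base before the table's stop, which lies 1 base past the annotated end for 34794 of 36486 genes with the same start in GENCODE vM21. Intervals on count ratios are exact, at 95%, and cover counting error only.

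Other settings were DESeq2 1.42.0, RLE factors, no filter, only the groups of a contrast, the replicate number as a block, 15 libraries, offsets removing each library's trend with transcript length (16 or 15 libraries), and each library of a contrast left out in turn. Genes named are the 9 of the set; from the wider list, up to 4 per role with the lowest adjusted p in the TGF-beta response with control siRNA and up to 4 per other contrast; and Prmt1 and Trp53. The 9 genes, the lists and the 15-library fits were chosen with earlier results of these data known. Results of 1 gene that this rule allows are not reported here.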

Additional observations from a re-analysis of the deposited data

Results flagged for a closer look

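These 5 results are listed because the TGF-beta response differed between an siRNA treatment and control siRNA by a test of the difference itself (edgeR, adjusted over all genes tested). For Rarb the difference in log2 response was 1.24 with PRMT1 siRNA (adjusted p = 0.00938) and 1.22 with both siRNAs (adjusted p = 0.0102). For Dhrs3 it was 1.15 with PRMT1 siRNA (adjusted p = 0.0187) and 1.12 with both siRNAs (adjusted p = 0.0266). In these 4 the gene fell less with TGF-beta than under control siRNA, and the comparisons share the control libraries. As given above, the Dhrs3 calls were lost in most or all fits with 1 library left out, and the Rarb calls in some. For Aldh1a1 it was -0.84 with p53 siRNA (adjusted p = 0.00794), a larger fall than under control siRNA. That comparison contains the library that stood apart, and the call was lost when only the groups of the contrast were fitted. Whether PRMT1 siRNA and p53 siRNA differ from each other in these responses was not tested.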

How the results depend on the processing

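Directions of the printed changes held in all settings run, except that the Aldh1a1 interaction with PRMT1 siRNA (0.09, uncalled) was -0.09 with length offsets on 16 or 15 libraries, and that 2 uncalled Cyp26b1 responses to TGF-beta ran from -0.30 to 0.76 with PRMT1 siRNA and from -0.57 to 1.59 with both siRNAs, with 1 library left out. The falls of Stra6, Aldh1a1, Dhrs3 and Rarb with TGF-beta kept their calls in every setting run, as did 20 of all 37 calls on the 9 genes; the lost ones are given in the report. Replicate numbers did not pair the libraries: replicate differences correlated between groups by -0.40 to 0.25, and among the 9 genes the replicate block ended 1 call, Crabp2 with TGF-beta under p53 siRNA. The 15-library fits leave out replicate 2 of p53 siRNA with TGF-beta; where that library is in the comparison they count once, and a library left alone in its group is assumed to vary like the others. Of the 7 genes tested, the number called was, for each comparison, as follows. TGF-beta response with control siRNA, 6 as reported, 4 to 5 with 1 library left out. TGF-beta response with PRMT1 siRNA, 5 as reported, 4 to 5 with 1 library left out. TGF-beta response with p53 siRNA, 6 as reported, 4 to 5 with 1 library left out. TGF-beta response with both siRNAs, 6 as reported, 5 to 6 with 1 library left out. PRMT1 siRNA without TGF-beta, 1 as reported, 2 with 15 libraries and 2 with length offsets on 15 libraries, 0 to 1 with 1 library left out. For p53 siRNA without TGF-beta, 0 as reported, 0 with any 1 library left out. Both siRNAs without TGF-beta, 0 as reported, 1 without the filter, 1 with 15 libraries and 2 with length offsets on 15 libraries, 0 with any 1 library left out. PRMT1 siRNA with TGF-beta, 3 as reported, 1 to 3 with 1 library left out. For p53 siRNA with TGF-beta, 2 as reported, 1 with 15 libraries and 0 with its own groups only, 1 to 2 with 1 library left out. Both siRNAs with TGF-beta, 3 as reported, 2 to 3 with 1 library left out. For p53 siRNA added to PRMT1 siRNA without TGF-beta, 0 as reported, 2 with 15 libraries, 1 with length offsets on 15 libraries, 3 with its own groups only and 1 by DESeq2, 0 with any 1 library left out. For p53 siRNA added to PRMT1 siRNA with TGF-beta, 0 as reported, 1 with length offsets on 15 libraries, 0 with any 1 library left out. PRMT1 siRNA by TGF-beta interaction, 2 as reported, 0 to 2 with 1 library left out. For p53 siRNA by TGF-beta interaction, 1 as reported, 2 without the filter and 0 with its own groups only, 1 to 2 with 1 library left out. Both siRNAs by TGF-beta interaction, 2 as reported, 0 to 1 with 1 library left out. The number called over all genes moved more, and the cause was not tested. TGF-beta response with control siRNA, 5950 genes, 4344 to 4620 with 1 left out. TGF-beta response with PRMT1 siRNA, 5035 genes, 8150 with 15 libraries, 8390 with length offsets on 15 libraries and 9147 with its own groups only, 3080 to 3228 with 1 left out. TGF-beta response with p53 siRNA, 7012 genes, 2207 with its own groups only, 5082 to 10075 with 1 left out. TGF-beta response with both siRNAs, 4851 genes, 7639 with 15 libraries and 8049 with length offsets on 15 libraries, 3172 to 3501 with 1 left out. PRMT1 siRNA without TGF-beta, 1601 genes, 4259 with 15 libraries, 3057 with length offsets, 5060 with length offsets on 15 libraries and 2700 with its own groups only, 397 to 556 with 1 left out. For p53 siRNA without TGF-beta, 382 genes, 609 without the filter, 1877 with 15 libraries, 1129 with length offsets, 2671 with length offsets on 15 libraries, 726 with its own groups only and 655 by DESeq2, 55 to 127 with 1 left out. Both siRNAs without TGF-beta, 690 genes, 1133 without the filter, 3005 with 15 libraries, 1803 with length offsets, 3813 with length offsets on 15 libraries and 1040 by DESeq2, 122 to 167 with 1 left out. PRMT1 siRNA with TGF-beta, 2427 genes, 3882 without the filter, 6659 with 15 libraries, 3653 with length offsets, 6265 with length offsets on 15 libraries and 7650 with its own groups only, 692 to 797 with 1 left out. For p53 siRNA with TGF-beta, 808 genes, 3301 without the filter, 1694 with length offsets, 1252 with length offsets on 15 libraries, 0 with its own groups only and 1500 by DESeq2, 148 to 8622 with 1 left out. Both siRNAs with TGF-beta, 2023 genes, 4820 with 15 libraries, 3563 with length offsets, 5595 with length offsets on 15 libraries and 4965 with its own groups only, 712 to 932 with 1 left out. For p53 siRNA added to PRMT1 siRNA without TGF-beta, 134 genes, 1156 without the filter, 60 with the replicate block, 3482 with 15 libraries, 731 with length offsets, 3162 with length offsets on 15 libraries, 2435 with its own groups only and 554 by DESeq2, 4 to 9 with 1 left out. For p53 siRNA added to PRMT1 siRNA with TGF-beta, 70 genes, 586 without the filter, 36 with the replicate block, 1962 with 15 libraries, 318 with length offsets, 2060 with length offsets on 15 libraries, 3020 with its own groups only and 226 by DESeq2, 1 to 13 with 1 left out. PRMT1 siRNA by TGF-beta interaction, 322 genes, 2128 without the filter, 4936 with 15 libraries, 1112 with length offsets, 4018 with length offsets on 15 libraries, 4856 with its own groups only and 835 by DESeq2, 55 to 143 with 1 left out. For p53 siRNA by TGF-beta interaction, 158 genes, 1952 without the filter, 104 with the replicate block, 361 with 15 libraries, 531 with length offsets, 701 with length offsets on 15 libraries, 0 with its own groups only and 504 by DESeq2, 29 to 7717 with 1 left out. Both siRNAs by TGF-beta interaction, 195 genes, 411 without the filter, 120 with the replicate block, 775 with 15 libraries, 490 with length offsets, 1243 with length offsets on 15 libraries, 367 with its own groups only and 337 by DESeq2, 65 to 98 with 1 left out. Depth limits Aldh1a2, Aldh1a3, Crabp1, Crabp2 and Cyp26b1, and Stra6 with TGF-beta.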
